A study of Homo sapiens with 6 samples.

Results

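The BCL2 family of apoptosis regulators was followed as 10 genes in RPE-1 cells, an immortalised human retinal pigment epithelial line, after knockdown of the splicing factor SON. The members were taken by gene name from a table of 58735 genes, and all 10 were found once. They are the anti-apoptotic genes BCL2, BCL2L1, BCL2L2, MCL1 and BCL2A1, the effector BAK1, and the BH3-only genes BCL2L11, BID, BAD and BIK. The siControl group (3 libraries) had received a scramble siRNA and the siSON group (3 libraries) an siRNA against SON. Cells of both groups carried GFP-tagged CETN2, which marks centrioles, and PLK4 under an rtTA-dependent promoter induced with 1 µg/mL doxycycline, so no library lacked PLK4 induction. The labels do not say whether replicates were separate cultures, so p-values measure the spread between these libraries only.

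BCL2 family proteins decide whether the outer mitochondrial membrane is opened, the step that releases cytochrome c and starts caspase activation. Effectors such as BAK1 form the pore, anti-apoptotic members bind and hold effectors and BH3-only proteins in check, and BH3-only proteins carry stress signals to both. Several of these genes, among them BCL2L1, MCL1 and BCL2L11, are known to give splice forms of different or opposite activity, and counts per gene do not separate these forms.

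Library totals ran from 54572365 to 69764836 counts. SON itself fell from 297 ± 14.5 to 67.6 ± 2.49 CPM (counts scaled to a common library size; mean ± SD, n = 3 each), so that 22.8% of the siControl level remained. Of 10 markers of differentiated pigment epithelium, 3 (BEST1, MITF and OTX2) reached 1 CPM in every library, TYR and TTR had 0 counts, and RPE65 reached at most 0.258 CPM. The summed level of that list was 51.5 to 53.3 CPM in siControl and 74.1 to 83.4 CPM in siSON. BEST1 shares 1267 exonic bases, 14.2% of its exonic length, with FTH1 on the other strand. With the strand setting unknown, the part of FTH1 reads in the BEST1 counts was not tested. All 6 mesenchymal markers were above 1 CPM in every library, while the 3 blood markers summed to at most 1.98 CPM and the 2 endothelial markers to at most 1.36 CPM. Keratin and junction genes summed to 910.5 to 1019 CPM in siControl and 1593 to 1655 CPM in siSON, and the 2 neural markers to 9.52 to 10.5 CPM and 5.00 to 5.47 CPM. Members of a list did not all follow its sum. KRT8, KRT18 and TJP1 rose (log2 fold changes 0.34, 1.48 and 0.95), while KRT7 fell (-0.76). PMEL and LRAT fell from 2.06 and 0.433 to 0.200 and 0.0692 CPM. The mesenchymal sum was 15534.8 to 18234.2 CPM in siControl and 15192.5 to 16649.5 CPM in siSON. There COL1A1, COL1A2 and THY1 fell (-1.85, -0.71 and -0.57), CDH2 rose (0.66), and VIM and FN1 were not called. The part of these levels in the results was not tested.

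After SON knockdown the family did not move as one block. BID and MCL1 rose, BCL2L1 rose slightly, BCL2L2, BCL2, BCL2L11 and BIK fell, and BAK1 and BAD did not pass the test. Of the 9 members with enough counts to be tested, edgeR's quasi-likelihood test called 7 at an adjusted p below 0.05, against 71.7% of all 16591 genes tested. The rise of BCL2L1 depended on the scaling: it was called lower under cyclic loess normalization and not called with library size alone. With cyclic loess normalization 1 member was called higher, and with the correction for GC content and length 5 were. In the reported fit the 3 called higher stand beside 35.2% of all genes called higher, and the 4 called lower beside 36.5% called lower. The share of calls in the family was therefore near that of the whole table. Among the 7770 genes in the range of mean log2 CPM of the tested members other than BIK (3.77 to 7.92), 81.7% were called. The 7 called members include BIK, which lies outside that range. BCL2L2 and BIK were at least 2-fold lower, as were 20.5% of all genes, and no member was at least 2-fold higher, as were 8.72% of all genes. In bulk RNA, fewer cells that express a gene and less RNA per cell cannot be told apart. The groups did not overlap for any of the 9 tested members, as for 75.1% of all genes tested. Their median log2 fold change (siSON over siControl) was 0.051, beside -0.027 over all genes. BCL2A1 was not tested because only 2 libraries, both siControl, reached the count minimum of 10.

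**Figure D1:**
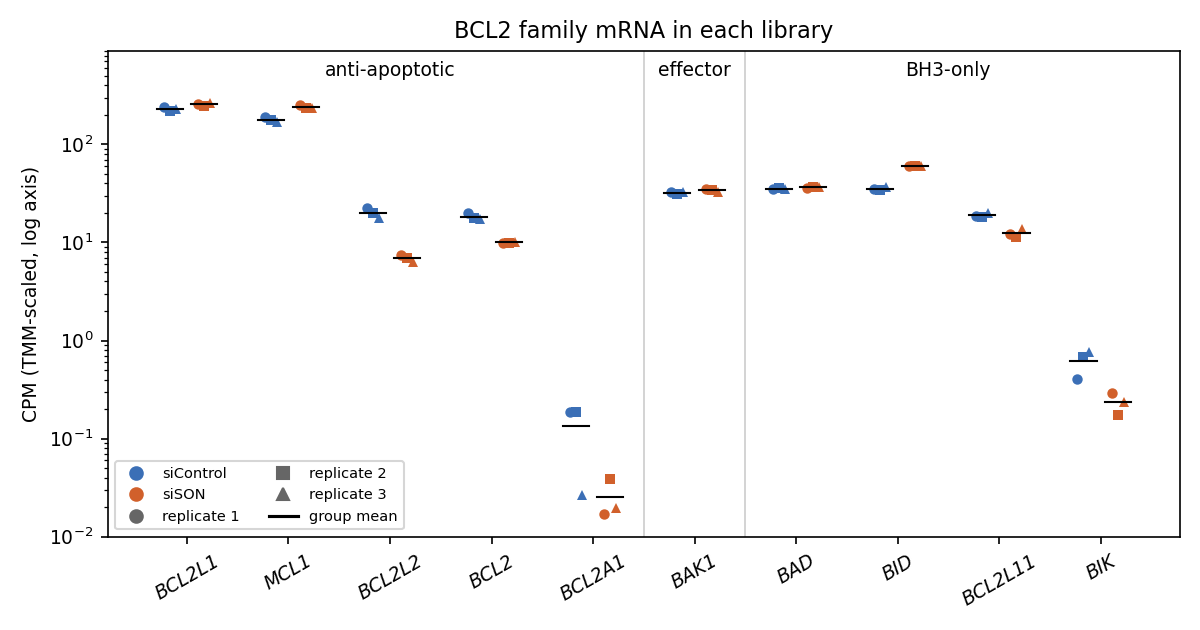
CPM of the 10 members on a log axis, with one symbol per library (circles, squares and triangles are replicates 1, 2 and 3), siControl in blue, siSON in orange and black bars for group means. BCL2L2 lies between 17.8 and 22.6 CPM in siControl and between 6.39 and 7.51 CPM in siSON, while BCL2L1 and MCL1 stay above 169 CPM in all libraries.

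BCL2L2 encodes BCL-w, a pro-survival protein. It lies on GRCh38 chromosome 14 (23298790 to 23311759, plus strand), and its longest coding transcript has 4 exons. The siControl libraries, always in the order of replicates 1, 2 and 3, gave 22.6, 19.8 and 17.8 CPM, and the siSON libraries gave 7.51, 6.96 and 6.39 CPM. Every siSON library was below every siControl library, and 34.7% of the siControl level remained. This was a log2 fold change of -1.53 with an SE of 0.11 (edgeR adjusted p 2.78e-07). Its 813 exonic bases shared on the same strand with the readthrough gene BCL2L2-PABPN1 are 19.4% of its exonic length, and the counts there are uncertain. The readthrough gene had 0.971 ± 0.135 CPM in siControl and 1.01 ± 0.480 CPM in siSON (log2 fold change 0.063, SE 0.34, edgeR adjusted p 0.878). PPP1R3E on the other strand, which shares 206 exonic bases with BCL2L2, had 22.7% of its siControl level in siSON.

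BCL2, the founding pro-survival gene, lies on chromosome 18 (63123346 to 63320128, minus strand). Its values were 20.1, 17.7 and 17.3 CPM in siControl and 9.94, 9.99 and 10.2 CPM in siSON. The siSON libraries lay within a narrow band below all siControl libraries. BCL2 fell by 0.87 on the log2 scale (SE 0.09, edgeR adjusted p 4.14e-06), which left 54.6% of the siControl level. The fall of BCL2L2 relative to BCL2 was also seen within libraries, in a count ratio that does not depend on the scaling between libraries. BCL2L2 had 1.12, 1.11 and 1.03 counts per BCL2 count in siControl and 0.756, 0.697 and 0.630 in siSON (2-sided exact permutation p = 0.1, the smallest that 3 against 3 can give). The mean log2 ratio differed by -0.65. It was not computed after the GC and length correction, where the log2 fold changes lay closer together, at -1.51 for BCL2L2 and -1.28 for BCL2.

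MCL1 encodes a short-lived pro-survival protein and lies on chromosome 1 (150574551 to 150579738, minus strand). It had 189.8, 177 and 169 CPM in siControl and 250.05, 233 and 238 CPM in siSON. All siSON libraries were above all siControl libraries. MCL1 rose by 0.43 on the log2 scale (SE 0.06, edgeR adjusted p 3.77e-05). The size of the rise depended on the scaling: it was 0.23 with library size alone (edgeR adjusted p 0.00268), 0.22 after the GC and length correction (edgeR adjusted p 0.00497), and 0.11 under cyclic loess normalization, where the call was lost (limma adjusted p 0.104).

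BCL2L1, which encodes the pro-survival form BCL-XL and the pro-apoptotic form BCL-XS, lies on chromosome 20 (31664452 to 31723989, minus strand). It was the most abundant member, with 242, 217 and 229 CPM in siControl and 259.9, 245 and 262 CPM in siSON. The lowest siSON library was above the highest siControl library by only a few CPM. The log2 fold change of 0.16 (SE 0.06, edgeR adjusted p 0.0246) was not stable. It was 0.49 after the GC and length correction, -0.040 with library size alone (edgeR adjusted p 0.496) and, called in the other direction, -0.18 after cyclic loess normalization (limma adjusted p 0.0100). Without siControl replicate 2, siControl replicate 3 or siSON replicate 3 it was 0.10, 0.15 and 0.15 (edgeR adjusted p 0.182, 0.0682 and 0.0626). The antisense gene ABALON covers 43.0% of the exonic length of BCL2L1 but had at most 41 counts in any library.

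BCL2A1, a pro-survival gene best known as an NF-kappaB target in blood cells, was near the limit of detection. It had 13, 12 and 2 counts in siControl and 1, 2 and 1 counts in siSON. The siSON counts were all under 3, the smallest number taken as detectable, and 1 siControl library was there too. The reported fit gives no fold for BCL2A1.

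The effector BAK1 lies on chromosome 6 (33572547 to 33580293, minus strand). Its values were 32.3, 31.5 and 32.4 CPM in siControl and 35.3, 34.6 and 33.0 CPM in siSON. The siSON libraries were all slightly higher, but the log2 fold change of 0.098 (SE 0.06, edgeR adjusted p 0.188) did not pass the test. Under the correction for GC content and exonic length it was 0.57 (edgeR adjusted p 8.83e-06), and with library size alone -0.099 (edgeR adjusted p 0.182). Its processed pseudogene BAK1P1 had 1 to 14 counts per library.

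Among the BH3-only genes, BID and BCL2L11 moved in opposite directions. BID, whose protein is cut by caspase-8 and so links death receptors to mitochondria, lies on chromosome 22 (17734138 to 17774770, minus strand). It had 34.9, 34.2 and 36.7 CPM in siControl and 60.6, 60.1 and 60.3 CPM in siSON. The 3 siSON libraries were nearly equal, with a coefficient of variation of 0.407%, and far above the siControl libraries. BID rose by 0.78 on the log2 scale (SE 0.06, edgeR adjusted p 4.17e-07), a 1.71-fold rise. Its direction and call held under all 15 alternatives, with values from 0.58 to 0.80.

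BCL2L11 encodes BIM, which binds all the pro-survival proteins, and lies on chromosome 2 (111119378 to 111168447, plus strand). Its values were 18.7, 18.0 and 19.97 CPM in siControl and 12.2, 11.4 and 13.8 CPM in siSON, without overlap. BCL2L11 fell by 0.60 on the log2 scale (SE 0.09, edgeR adjusted p 0.000121), which left 65.9% of the siControl level. It was -0.92 after the GC and length correction. The lincRNA MIR4435-2HG on the other strand shares 727 exonic bases with it and went the other way, from 28.0 ± 2.43 CPM to 47.9 ± 0.914 CPM (mean ± SD over 3 libraries; log2 fold change 0.78, edgeR adjusted p 2.72e-06). The share of counts that could belong to either strand is not known. Per BCL2L11 count there were 1.87, 1.90 and 1.84 BID counts in siControl and 4.97, 5.28 and 4.38 in siSON (2-sided exact permutation p = 0.1, the smallest possible).

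The stretch before 1 RefSeq start of each gene is shown because these BH3-only genes both have GC-rich sequence there and differed in direction. The sequences are from RefSeq (GRCh38.p14), which held an entry for 7 of the 10 members, and run 5′ to 3′ over the 250 bases before that RefSeq start. Both windows lie inside the GENCODE gene spans given above, downstream of the outermost annotated start, in stretches with no GENCODE exon. For BID, 1 of 5 listed RefSeq starts was taken because only its window holds no such exon. Capitals mark the GC box GGGCGG on either strand (CCGCCC on the other), in BID with a pair of overlapping matches.
BCL2L11 (chr2:111120664-111120913, plus strand): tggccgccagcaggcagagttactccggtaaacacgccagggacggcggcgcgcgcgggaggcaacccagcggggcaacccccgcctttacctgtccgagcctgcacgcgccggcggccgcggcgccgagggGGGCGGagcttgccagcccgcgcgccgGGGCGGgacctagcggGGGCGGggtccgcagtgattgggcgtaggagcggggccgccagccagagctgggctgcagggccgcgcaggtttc
BID (chr22:17774043-17774292, minus strand): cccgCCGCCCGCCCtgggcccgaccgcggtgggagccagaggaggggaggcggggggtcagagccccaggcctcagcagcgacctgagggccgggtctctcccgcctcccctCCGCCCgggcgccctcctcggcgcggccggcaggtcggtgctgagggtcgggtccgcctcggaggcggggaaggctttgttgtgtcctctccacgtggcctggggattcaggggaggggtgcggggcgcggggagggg
Both windows hold 3 GC boxes, and 42.6% of 35116 such windows hold at least 1. Their GC content was 76.8% for BCL2L11 and 78.0% for BID, beside a median of 58.0%. The CCAAT box (CCAAT or ATTGG) was found once before BCL2L11 and not in the BID window (32.0% of windows), and TATAAA or TTTATA was in neither (10.7% of windows). These matches are a description of letters and bear on no difference between the groups.

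BAD, a BH3-only protein that is silenced by phosphorylation and 14-3-3 binding, lies on chromosome 11 (64269830 to 64284704, minus strand). It had 35.0, 35.6 and 35.0 CPM in siControl and 35.6, 36.9 and 36.9 CPM in siSON, with hardly any gap between the groups. BAD did not pass the test, at 0.051 on the log2 scale (SE 0.06, edgeR adjusted p 0.466). The correction for GC content and length gave 0.79 (edgeR adjusted p 5.45e-07), the largest shift of any member. The longest coding transcript of BAD has 66.3% GC, the highest of the members. GPR137 on the other strand shares 404 exonic bases with BAD, 23.7% of its exonic length, and fell from 31.1 ± 2.14 CPM to 2.55 ± 0.196 CPM (mean ± SD over 3 libraries; edgeR adjusted p 8.39e-10). With the strand setting unknown, the part of GPR137 reads in the BAD counts was not tested.

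BIK, a BH3-only protein of the endoplasmic reticulum, lies on chromosome 22 (43110748 to 43129712, plus strand) and was weakly expressed. It had 28, 43 and 57 counts in siControl and 17, 9 and 12 counts in siSON, 0.614 ± 0.189 and 0.234 ± 0.0592 CPM (SD, n = 3 each). The groups did not overlap, and the spread was wide in both. BIK fell by 1.37 on the log2 scale (SE 0.38, edgeR adjusted p 0.00741). Under cyclic loess normalization it was -0.70 and the call was lost (limma adjusted p 0.0988).

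**Figure D2:**
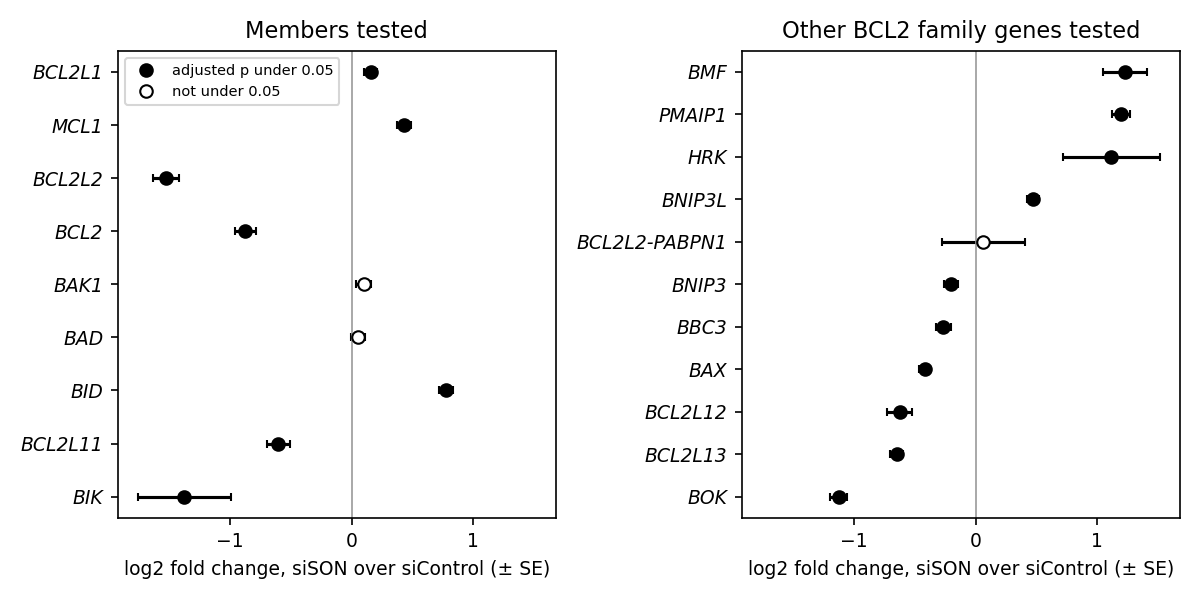
Log2 fold change, siSON over siControl, with its standard error for the 9 tested members (left) and the 11 other BCL2 family genes tested (right); filled points have an adjusted p below 0.05 (edgeR). In the member panel BCL2L2 lies at -1.53 and BID at 0.78, and BIK at -1.37 has the widest error, 0.38.

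Levels were compared between genes per exonic length, as RPKM (CPM per kilobase of exon, from the same scaled libraries). In siControl the order was BCL2L1 (69.2 RPKM), MCL1 (40.9), BAD (20.6), BAK1 (14.5), BID (7.93), BCL2L2 (4.78), BCL2L11 (2.84), BCL2 (1.56), BIK (0.644) and BCL2A1 (0.123). No 2 neighbours in that order overlapped between libraries. In siSON the first 5 kept their places, at 77.2, 54.98, 21.4, 15.5 and 13.6 RPKM. BCL2L11 (1.87 RPKM) and BCL2L2 (1.66 RPKM) then overlapped, so that their order was not resolved, and BCL2 followed at 0.852 RPKM. BID came close to BAK1 in siSON. When the longest coding transcript gave the length, BID (24.2 RPKM) stood above BAK1 (15.5 RPKM).

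The make-up of the anti-apoptotic pool was read as each gene's share of the 5 genes' summed RPKM within a library. BCL2L1 and MCL1 together made up nearly all of it in both groups. MCL1 went from 35.1% ± 0.928 to 40.8% ± 0.726 (SD, n = 3 each) and BCL2L1 from 59.4% ± 1.277 to 57.3% ± 0.819. The BCL2L1 difference of -2.10 percentage points was -1.39 without siControl replicate 3 and -2.64 without siControl replicate 2. BCL2L2 went from 4.10% ± 0.314 to 1.23% ± 0.0953 and BCL2 from 1.34% ± 0.0431 to 0.633% ± 0.0212. Among the 4 BH3-only genes, BID went from 24.8% ± 0.650 to 36.6% ± 0.535, BAD from 64.4% ± 1.25 to 57.6% ± 0.688 and BCL2L11 from 8.86% ± 0.375 to 5.05% ± 0.443. The groups did not overlap for any of these shares. Each had a 2-sided exact permutation p of 0.1, the smallest possible, or 0.113 adjusted over the 9 shares computed. The shares were not computed after the GC and length correction, so their shifts hold only without it. With that correction BCL2L1 rose more than MCL1 (log2 fold changes 0.49 and 0.22). BAD likewise rose more than BID (0.79 and 0.64), while BCL2L2, BCL2 and BCL2L11 still fell.

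**Figure D3:**
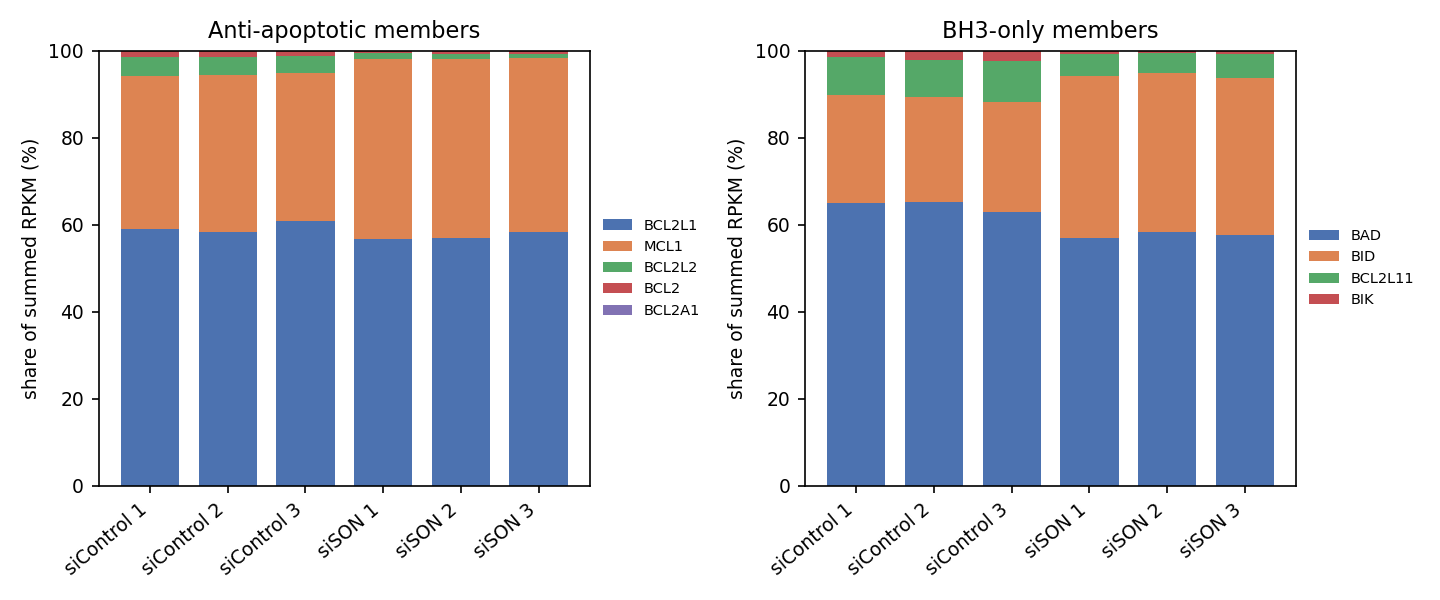
Stacked bars give each gene's share (%) of the summed RPKM of the 5 anti-apoptotic members (left) and of the 4 BH3-only members (right) in each of the 6 libraries. The MCL1 band is 34.1% to 36.0% high in siControl and 39.998% to 41.4% in siSON, and the BID band 24.1% to 25.4% and 36.2% to 37.2%.

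With no GC and length correction, the ratio of the summed levels of anti-apoptotic and other members hardly differed between the groups. The log2 ratio of the 5 anti-apoptotic to the 5 other members was 1.42, 1.284 and 1.27 in siControl and 1.39, 1.30 and 1.37 in siSON. These libraries overlapped, and the difference of 0.033 was less than the SD of either group (0.085 and 0.048). Leaving out 1 library moved it between 0.0039 (without siControl replicate 3) and 0.082 (without siControl replicate 1), with 0.013 and 0.014 without siControl replicate 2 and siSON replicate 1 and 0.060 without siSON replicate 2. Its sign depended on the members and lengths used: it was -0.023 with longest-transcript lengths and -0.10 without MCL1. The ratio was not computed after the GC and length correction, which moved both sides. There the log2 fold changes were 0.49, 0.22, -1.51 and -1.28 for BCL2L1, MCL1, BCL2L2 and BCL2. They were 0.57, 0.64, 0.79, -0.92 and -1.11 for BAK1, BID, BAD, BCL2L11 and BIK. The ratio covers members only and leaves out other effectors and BH3-only genes, some of them at high levels. BAX alone fell from 80.4 RPKM in siControl to 60.2 RPKM in siSON, while PMAIP1 rose from 23.5 to 53.8 RPKM. The 5 members that are not anti-apoptotic summed to between 46.2 and 47.2 RPKM in siControl and between 52.4 and 52.7 RPKM in siSON.

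Gene structure differed widely among the members. In the longest coding transcripts introns ran from 126 to 2389 bases in BAK1, from 297 to 616 in BCL2L2 and from 351 to 752 in MCL1, while BCL2 has a single intron of 189322 bases and BID has introns of 1119 to 23435 bases. The GC content of these transcripts was 39.9% for BCL2A1, 45.1% for MCL1, 45.6% for BCL2, 45.7% for BCL2L11, 49.7% for BID, 52.3% for BCL2L2, 56.0% for BIK, 56.9% for BCL2L1, 58.8% for BAK1 and 66.3% for BAD. The part of structure and GC content in the differences between the groups was not tested beyond the GC and length correction. GENCODE lists 25 transcripts for BCL2L11, 8 of them typed as targets of nonsense-mediated decay, and 2 retained-intron transcripts for BID.

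Pattern likeness was measured by Pearson's r of log2 CPM over the 6 libraries, as a description. MYL12B, SNRPA1 and ATP1B3 were most like BID (r at least 0.9997), and SYNJ2, MGST1 and EPM2AIP1 most like BCL2L2 (r at least 0.999). With 6 libraries in 2 groups such values are common: 3552 of 11775 genes compared had r above 0.95 with BID and 2372 with BCL2L2.

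The other BCL2 family genes also moved in both directions. Of 14, 11 were tested and 10 were called changed, 4 higher and 6 lower, with a median log2 fold change of -0.21. For this list and those that follow, the same values over all genes tested were 71.7% called, 35.2% higher and 36.5% lower, with a median of -0.027. After the GC and length correction 3 were called lower. PMAIP1, which encodes the BH3-only protein NOXA that binds MCL1, rose from 52.6 ± 4.61 CPM to 120.3 ± 6.45 CPM (mean ± SD over 3 libraries; log2 fold change 1.19, SE 0.07, edgeR adjusted p 7.49e-08). BMF, another BH3-only gene, rose from 18.0 ± 3.96 to 42.0 ± 8.90 CPM (log2 fold change 1.22, SE 0.18, edgeR adjusted p 0.000218). The mitophagy receptor gene BNIP3L rose by 0.47 and its relative BNIP3 fell by 0.21 on the log2 scale. HRK, at 0.633 ± 0.428 and 1.37 ± 0.211 CPM, had a log2 fold change of 1.12 (edgeR adjusted p 0.0263). Its call was lost with library size alone, after the GC and length correction, and without siControl replicate 2 or 3 or siSON replicate 1 or 3, where values ran from 0.77 to 1.13.

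Both effectors outside the member list were called lower. BAX, the other main pore-forming effector, had 208 ± 3.90 CPM in siControl and 156 ± 2.02 CPM in siSON (SD, n = 3 each; log2 fold change -0.42, SE 0.05, edgeR adjusted p 9.71e-06). BOK fell from 46.5 ± 2.54 to 21.3 ± 0.758 CPM (log2 fold change -1.13, SE 0.07, edgeR adjusted p 8.87e-08). BBC3, which encodes the BH3-only protein PUMA, had a log2 fold change of -0.27 (edgeR adjusted p 0.00254). BCL2L12 and BCL2L13 had log2 fold changes of -0.62 and -0.65. After the GC and length correction BOK was at -0.41, the calls of BAX (0.050, edgeR adjusted p 0.332) and BCL2L12 (-0.14, edgeR adjusted p 0.256) were lost, and that of BBC3 turned round (0.50, edgeR adjusted p 2.05e-05). BCL2L12 shares 33.1% of its exonic length with IRF3 on the other strand.

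Downstream of the mitochondria, 10 of 13 apoptosome and caspase genes were called, a share near the 71.7% of all genes, 5 higher and 5 lower (3 higher without siControl replicate 3 or with library size alone). ENDOG, a mitochondrial nuclease, fell by 1.09, while AIFM1, a flavoprotein released from mitochondria, and DFFA, the inhibitor of the caspase-activated nuclease, rose by 0.68 and 0.50 on the log2 scale. After the GC and length correction the ENDOG value was -0.35 and not called (edgeR adjusted p 0.0632). All 8 tested genes of IAP proteins and their antagonists were called, beside 71.7% of all genes, 3 higher and 5 lower, with 3 lower when siControl replicate 2 or siSON replicate 1 was left out or after the GC and length correction. The 5 lower include BIRC7, named after its values were seen, at 0.329 ± 0.159 CPM in siControl and 0 CPM in siSON. It passed the count filter only through siControl, so it could only be called lower. XIAP, the direct caspase inhibitor, rose by 0.51, BIRC5 by 0.54 and BIRC6 by 0.44 on the log2 scale. BIRC3 fell from 5.45 CPM to 0.848 CPM, with SDs of 0.442 and 0.258 over 3 libraries each (log2 fold change -2.69, edgeR adjusted p 3.56e-07). The BIRC6 call was lost after the GC and length correction (0.055, edgeR adjusted p 0.476).

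A further list held 13 genes of the mitochondrial pore and other partners of the family, not all of them mitochondrial. Of these, 11 were called, 9 higher and 2 lower, with a median log2 fold change of 0.33. Over all genes 71.7% were called, 35.2% higher, with a median of -0.027. Under cyclic loess normalization 5 were called higher, and with library size alone 4 were called lower. Without siControl replicate 3, siSON replicate 1 or siSON replicate 3, or with no count filter, 1 was called lower. VDAC1, a channel of the outer membrane, rose from 188 ± 1.42 to 375 ± 8.72 CPM, and BAG3, a co-chaperone, from 186 ± 1.98 CPM to 378 ± 16.7 CPM (mean ± SD over 3 libraries; log2 fold changes 0.99 and 1.02, edgeR adjusted p 1.17e-08 and 1.61e-08). TMBIM6, known as BAX inhibitor 1, rose by 0.95 and the inner-membrane fusion gene OPA1 by 0.41. Among the death receptors and adaptors that lead to BID, 8 of 10 were called, 3 higher and 5 lower, beside 71.7% of all genes called. TRADD, an adaptor of TNF receptor 1, fell from 19.8 ± 0.265 to 1.02 ± 0.112 CPM (log2 fold change -4.28, SE 0.11, edgeR adjusted p 6.78e-10). The receptor gene TNFRSF1A and the kinase gene RIPK1 rose by 1.15 and 1.08, and the TRAIL receptor gene TNFRSF10A fell by 1.30 on the log2 scale.

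**Figure D4:**
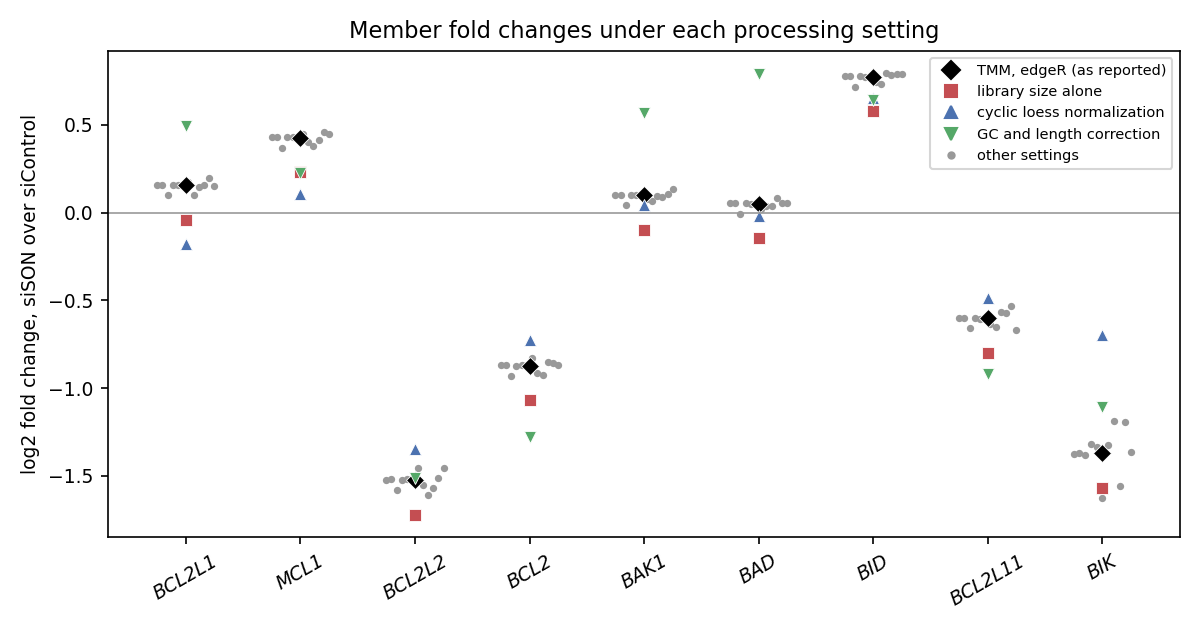
Log2 fold change of each tested member under the reported fit (black), 3 other scalings or corrections (coloured) and the remaining alternatives (grey). BCL2L1 spans -0.18 to 0.49 and BAD -0.15 to 0.79, across 0, while BCL2L2 stays between -1.72 and -1.35 and BID between 0.58 and 0.80.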

How the data were processed

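RNA-seq counts were examined in 6 libraries (3 siControl, 3 siSON). The authors deposited raw whole-number counts per gene, 1 column per library. The submitters' processing notes list hg38, cutadapt 1.16, STAR 2.5.2a, featureCounts 1.6.2 and DESeq2 1.28.1; the annotation, strand setting and handling of multi-mapping reads are not given in the sources used here. All 58735 identifiers matched GENCODE 29 (GRCh38), which gave positions, exons, lengths and GC content.

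Columns were matched to libraries by title. The group comparison used edgeR 4.0.16 under R 4.3.3 (filterByExpr, minimum count 10; TMM scaling; robust quasi-likelihood fit on group). P-values were Benjamini-Hochberg adjusted over 16591 genes and called under 0.05. SE is the absolute log2 fold change over the square root of F. Shares were tested with scipy 1.17.1. The procedure was tested on simulated data. A count of 3 corresponds to 0.0430 to 0.0550 CPM before scaling, for counting error only, as reads carried no molecular identifiers.

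Members and lists were chosen with earlier results of these data known. Named genes are all members, SON, every tested gene of the other BCL2 family list, the 4 smallest adjusted p-values in each other list, and the 3 genes most like the top rising and top falling member. Overlapping genes were added after their values were seen. A gene that the rule selects is not reported here. Alternatives were DESeq2 1.42.0, limma 3.58.1 (voom and cyclic loess), RLE factors, library size alone, no count filter, a mean count of at least 50, a GC and length correction, the replicate block and each library left out.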

Additional observations from a re-analysis of the deposited data

How the results depend on the processing

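Scaling by library size alone moved the log2 fold change of all genes by a median of -0.20, and cyclic loess normalization moved it by 0.14. Higher genes made up 49.1% of all calls under TMM and 37.7% (4441 higher, 7351 lower) with library size alone. The number of all genes called (11888) ranged from 10226 to 12604. BCL2L2, BCL2, BCL2L11 and BID kept direction and call under all 15 alternatives each. BCL2L1 (0.16) was -0.040 when scaled by library size alone, -0.18 after cyclic loess normalization and 0.099 with a mean count of at least 50. Leaving out each library in turn gave it 0.0996 to 0.198. Cyclic loess normalization also gave 0.11 for MCL1 and -0.70 for BIK, and 1 member called higher in place of 3. After the GC and length correction BAK1 was 0.57 and BAD 0.79, both called, so that 5 members were called higher. It gave BAX 0.050 and BBC3 0.50, against -0.42 and -0.27. The cause of these shifts was not tested. BIK has no value with a mean count of at least 50. BCL2A1 was tested with no count filter (log2 fold change -2.31, SE 1.04, edgeR adjusted p 0.0597), a value that rests on counts near the detection limit. It was also tested in 4 of the fits without 1 library. There it passed the count filter only through siControl, so it could only be called lower. Without siControl replicate 3, 5 members were called lower, BCL2A1 among them.

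Share differences (siSON minus siControl, percentage points) were 5.75 for MCL1, -2.86 for BCL2L2 and -0.705 for BCL2. From summed counts with no length scaling they were 6.83, -3.12 and -2.15, and for BCL2 with longest-transcript lengths -0.910. The log2 ratio of anti-apoptotic to other members differed by 0.033, by -0.023 with longest-transcript lengths, and, in alternatives chosen after seeing the data, by 0.11 without BCL2L1 and -0.10 without MCL1. The planned version without MCL1 was tied to MCL1 being the most abundant, which it was not. Neither the shares nor this ratio was computed after the GC and length correction.

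With the replicate number as a block, 7 members were called, the same as without it; BCL2L1 was 0.16 (edgeR adjusted p 0.00404), and no member changed call. Deviations from the group mean correlated at 0.0461 to 0.194 for same-numbered libraries, and 6 of 6 libraries correlated best with their own number. These are 3 pairs seen from both sides, so the 6 are not independent. Same-numbered libraries also carry adjacent sample numbers in the column names, whose meaning is not given. The numbers are a hint of pairing that the labels do not state. Depth limits BCL2A1, BIK and HRK.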

Other observations

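Regulators of the stability or activity of BCL2 family proteins also moved. Of 18 tested, 15 were called changed, 7 higher and 8 lower, beside 71.7% of all genes called. The 14-3-3 gene YWHAZ, whose protein binds phosphorylated BAD, fell from 861 ± 10.8 CPM to 164 ± 3.75 CPM (mean ± SD over 3 libraries; log2 fold change -2.40, SE 0.05, edgeR adjusted p 4.06e-10). Its paralog YWHAH fell from 165 ± 2.52 to 71.6 ± 7.28 CPM (log2 fold change -1.20). The paralogs YWHAB, YWHAE, YWHAG and YWHAQ, named after their values were seen, were called higher, with log2 fold changes of 0.35, 0.66, 0.80 and 0.40. The paralog SFN, named in the same way, was called lower at a far smaller level, 0.781 ± 0.146 and 0.115 ± 0.0558 CPM (log2 fold change -2.77, SE 0.42, edgeR adjusted p 0.000119). SFN passed the count filter only through siControl, so it could only be called lower, and it is among the 8 counted lower. RPS6KA1, a kinase that phosphorylates BAD, fell from 28.3 ± 1.93 to 3.49 ± 0.721 CPM (log2 fold change -3.02, SE 0.13, edgeR adjusted p 9.05e-09). BTRC, a ubiquitin ligase subunit with MCL1 and BIM among its reported targets, rose from 31.6 ± 2.41 to 84.5 ± 2.86 CPM (log2 fold change 1.42).

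Of 13 tested transcription factors that act on BCL2 family genes, 11 were called, 8 higher and 3 lower, with a median log2 fold change of 0.68, beside 71.7% called, 35.2% higher and 36.5% lower of all genes. ATF4, a factor of the integrated stress response, rose from 245 ± 11.3 CPM to 589 ± 21.0 CPM (mean ± SD over 3 libraries; log2 fold change 1.27, edgeR adjusted p 5.83e-09). STAT3 and RELA rose by 1.42 and 0.83 on the log2 scale (edgeR adjusted p 1.02e-08 and 1.89e-07). E2F1 fell from 27.0 ± 2.64 to 5.81 ± 1.48 CPM (log2 fold change -2.22, edgeR adjusted p 6.70e-07).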
